A study of Mus musculus with 12 samples.

Results

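The comparison asked how much more of each RNA was recovered with the MIWI antibody, relative to the starting RNA, where a catalytically altered MIWI was present than where MIWI was absent. For every gene, log2(RPKM + 1) of the immunoprecipitate (IP) minus that of the input was taken in Miwi ADH/- and in Miwi -/-, and the second value was subtracted from the first. This is called the IP enrichment difference, and it is given beside the plain difference of the IP columns. RPKM scales the reads of a gene to its length and to the read total of the column. Of 20345 listed Ensembl genes, 12246 had at least 1 RPKM in at least 2 of the 6 columns of the table and were used. At the edge of that filter, 278 genes entered with a second-highest value of 1 to under 1.1 RPKM and 274 stayed out at 0.9 to under 1 RPKM.

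MIWI (Piwil1) is a PIWI-clade Argonaute protein of meiotic and early haploid male germ cells, where it carries pachytene piRNAs. A piRNA guides the protein to RNAs with matching sequence, and the catalytic site of the protein can cut them. MIWI is also known to associate with many messenger RNAs of spermatogenic cells, in ribonucleoprotein particles in which they are held. The ADH allele changes the catalytic triad with which PIWI proteins cut RNA, so that the protein is made and loaded but does not slice.

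All samples were labelled as mouse late spermatocytes, and their RNA was depleted of ribosomal RNA. In Miwi ADH/- the catalytic allele stands over a null allele, and in Miwi -/- both alleles are null, so every animal of the comparison carries at least a single null copy. The IP from Miwi -/- shows what the antibody and beads recover without MIWI. Miwi +/- animals, with an intact copy, were sequenced alongside. The labels used here state no age, strain or number of animals. The extraction text names testes or cells purified by sorting, without saying which samples came from which. Each of the 4 groups compared has 2 labelled samples, 8 of 12 in all, while the table holds 1 column per group. No replicate values were therefore at hand, no test was made, and intervals below (95%) cover counting error of reads alone. Reads copied by PCR do not stand for separate molecules, so the intervals may be too narrow even for that. The Ensembl IDs could not be paired with gene names by the tables used here (0 matched). The targeted gene and the markers of cell types were therefore not checked, and at most 2 IDs per direction are given in each ranking.

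The columns differed in depth. In listed genes the Miwi ADH/- IP held 3706479 reads and the Miwi -/- IP 761525, and the inputs held 2627634 and 3810918 reads. In a gene of median length, 1 read was worth 0.0585 RPKM in the Miwi ADH/- IP and 0.148 RPKM in the Miwi -/- IP. RPKM divides by all reads of a column, and the share of a column's reads that fell in listed genes was 1.92 times as large in the Miwi ADH/- IP as in the Miwi -/- IP, against 0.892 times for the inputs. The main counts are therefore given on the deposited scale and also relative to the median of the kept genes, and other counts are on the deposited scale unless stated. The part that this share has in the results was not tested.

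Most transcripts stood higher with the catalytic mutant than in the control. The IP enrichment difference was at least 2-fold higher in Miwi ADH/- for 6357 genes, 51.9% of those used, and at least 2-fold lower for 894, or 7.3%. Its median was 1.06 on the log2 scale, a factor of 2.08, with quartiles of 0.21 and 1.86. It was above 0 for 79.5% of genes. At 4-fold there were 2636 genes higher and 262 lower, and at 8-fold 740 and 64. Around the 2-fold mark the genes were spread evenly: 397 lay at 0.9 to under 1 and 424 at 1 to under 1.1.

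The numbers of higher and lower genes differed between scales. Measured from the median, which makes the sides near equal by construction, 2463 genes (20.1%) were at least 2-fold higher and 2655 (21.7%) were lower. Dividing the columns by median-of-ratios size factors left a median of 0.12, with 3276 genes higher and 2448 lower. With equal RPKM totals the median was 0.49, with 4314 higher and 1648 lower, so more genes were higher than lower under both of these scalings. The order of the genes along the measure does not change when the median is subtracted.

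The plain difference of the IP columns gave nearly the same totals. Here 6343 genes (51.8%) were at least 2-fold higher in the Miwi ADH/- IP and 604 (4.93%) were lower, around a median of 1.05 with quartiles of 0.21 and 1.85. Exact counting intervals excluded equality for 6122 of the higher and 594 of the lower genes. For the enrichment difference, which uses 4 read numbers per gene, approximate intervals did so for 5680 (89.4%) of the higher genes and 544 (60.9%) of the lower. Both kinds of interval were counted among genes already called from the same reads, with equality taken on the deposited scale. These counts are therefore not a test. Measured from the median, 2553 genes (20.8%) were higher and 2565 (20.9%) lower between the IP columns.

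**Figure D1:**
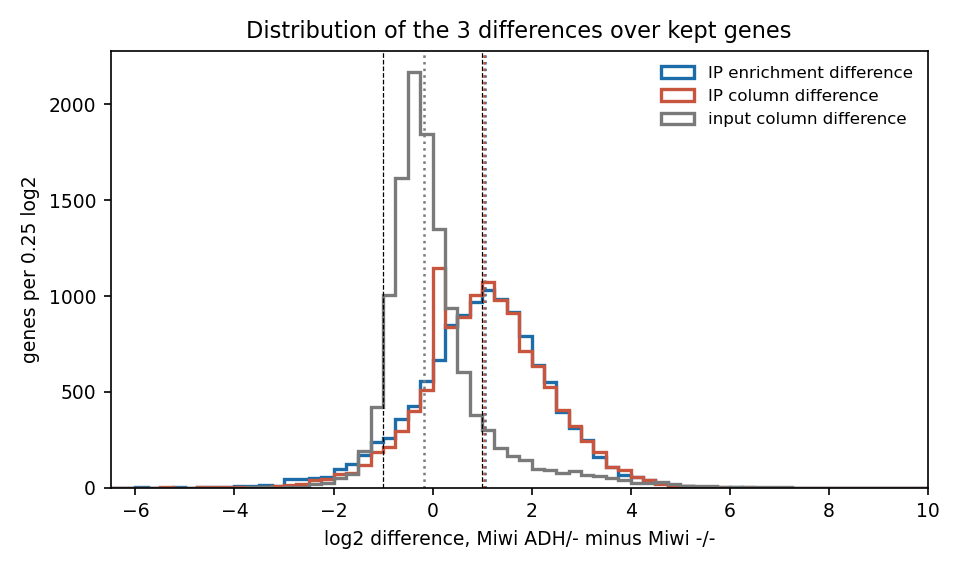
Number of genes (y axis, per 0.25 log2) at each log2 difference between Miwi ADH/- and Miwi -/- (x axis), for the IP enrichment difference, the IP column difference and the input column difference of 12246 genes. Dotted lines are medians (1.06, 1.05 and -0.18) and dashed lines mark 2-fold; the enrichment and IP distributions nearly coincide, while the inputs have a long tail to the right.

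Similar totals did not mean the same genes in every case. Both measures were at least 2-fold higher for 4937 genes, which is 77.7% of those higher by enrichment and 77.8% of those higher in the IP column. Both were lower for 353, which is 39.5% of the genes lower by enrichment and 58.4% of those lower in the IP column. The call was the same for 72.4% of all genes. Among the 6303 genes whose inputs lay within 0.5 log2 of each other it was the same for 90.0%. Closer calls follow there by construction, since the enrichment difference is the IP column difference minus the input difference. Across the 12246 genes the measures had a Pearson correlation of 0.66, which is a description only, since both contain the same IP columns.

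Opposite calls were almost all of a single kind. There were 231 genes lower by enrichment yet higher in the Miwi ADH/- IP column, and 4 genes the other way round. Measured from the medians these numbers were 306 and 21.

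**Figure D2:**
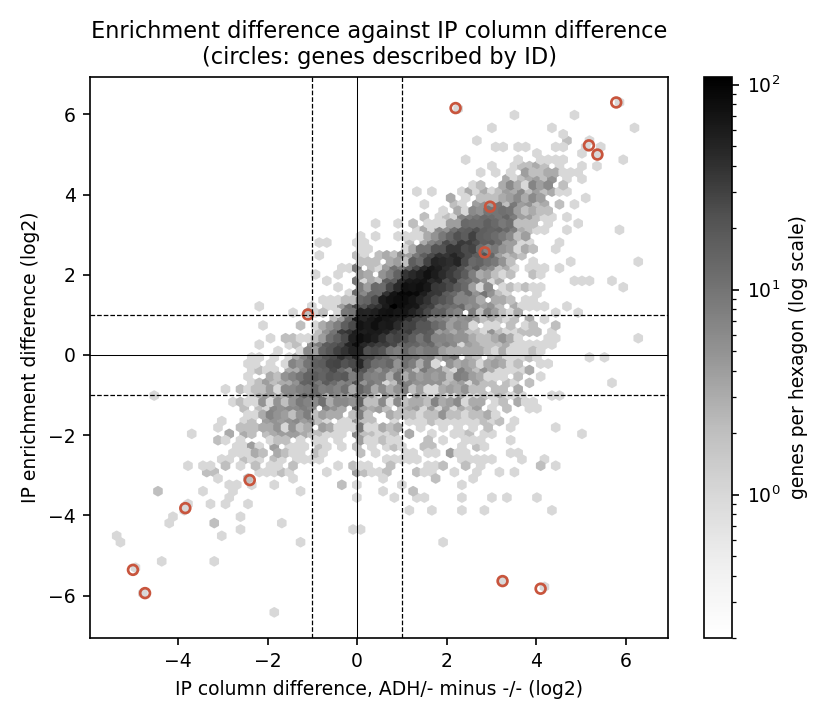
IP enrichment difference (y axis, log2) against the IP column difference (x axis, log2), both Miwi ADH/- minus Miwi -/-, for 12246 genes; darker hexagons hold more genes, dashed lines mark 2-fold and circles are the genes described by ID. Most genes follow a diagonal band, and 231 genes fill the lower right field, where the IP is higher and the enrichment lower.

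A gene could be higher by enrichment without standing above its own input. Of the 6357 higher genes, only 372 were at least 2-fold above their input in the Miwi ADH/- IP, 4701 lay within 2-fold of it and 1284 were at least 2-fold below it. Over all genes, 591 (4.83%) were above their input in this IP and 3057 (25.0%) below. The other side of the difference is the control. In the Miwi -/- IP, 5635 of the 6357 genes were at least 2-fold below their input, against 7463 (60.9%) of all genes. The commonest combination, 4193 genes or 66.0% of those higher, was an ADH/- IP within 2-fold of its input and a Miwi -/- IP at least 2-fold below. It was also common over all genes (4988, or 40.7%), and both of its values are parts of the measure that chose the genes. Relative to the medians of each difference, 437 of the 2463 higher genes were above their input in the Miwi ADH/- IP and 1813 were below it in the Miwi -/- IP.

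Levels are given as a description, since the measure that chose these genes holds the Miwi ADH/- and Miwi -/- columns. Their median RPKM was 7.85 in the Miwi ADH/- IP and 9.82 in its input, and 1.27 in the Miwi -/- IP and 12.1 in its input. In Miwi +/- the medians were 6.03 in the IP and 11.5 in the input. Over all kept genes the Miwi -/- IP was the lowest column too, at a median of 1.62 RPKM against 4.14 to 7.37 in the others. The higher genes took 61.5% of the reads of kept genes in the Miwi ADH/- IP, 56.4% in the Miwi +/- IP and 35.6% in the Miwi -/- IP, against 66.7% to 71.1% in the inputs.

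**Figure D3:**
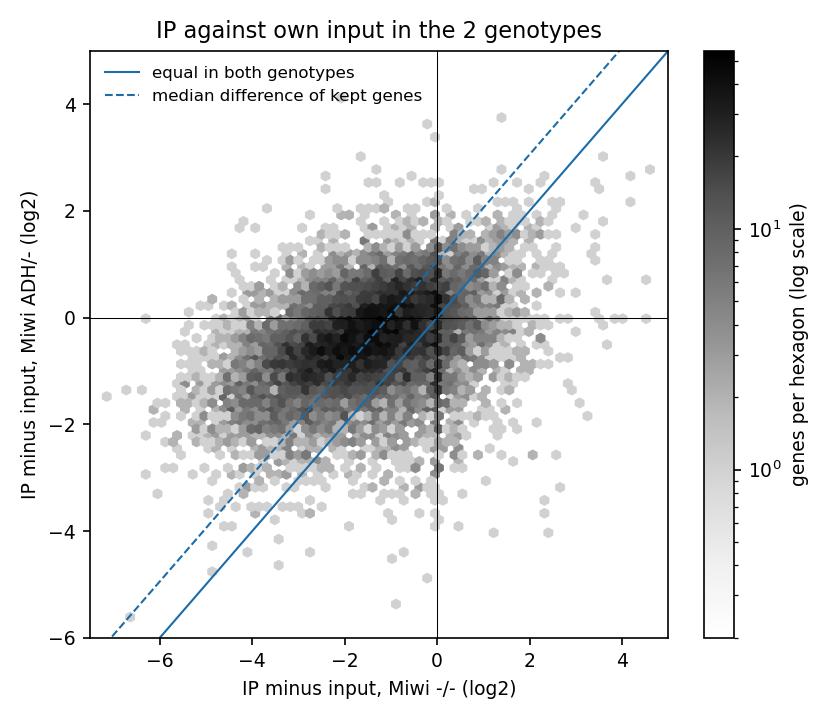
IP minus input in Miwi ADH/- (y axis, log2) against the same in Miwi -/- (x axis, log2) for 12246 genes; darker hexagons hold more genes, the solid line marks equality and the dashed line the median difference of 1.06. The cloud is wider along the Miwi -/- axis (SD over genes 1.42) than along the Miwi ADH/- axis (0.92) and lies mostly above the solid line.

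The largest enrichment differences were read off genes at or above the median level, with the IP columns at least 2-fold apart in the same direction. There were 3111 such genes higher and 85 lower. ENSMUSG00000035674 was the highest. It had 282 RPKM in the Miwi ADH/- IP and 276 in its input, but 4.13 in the Miwi -/- IP and 396 in that input. Its enrichment difference was 6.3, with a counting interval of 5.55 to 7.94, and its IP columns were 68.3-fold apart (33.0 to 170.2). The gene was thus recovered in proportion to its input with the catalytic mutant and almost lost from the control IP. The Miwi +/- IP, at 88.2 RPKM from an input of 274, lay between those of the other genotypes.

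ENSMUSG00000077345 came next, at 6.16, and shows how thin some of these values are. It had 16.3 RPKM in the Miwi ADH/- IP and 2.75 in the Miwi -/- IP, with 0 reads in the Miwi ADH/- input, 1 read in the Miwi -/- IP and 9 reads in the Miwi -/- input. The lower limit of its counting interval was 1.51, and the interval of its IP ratio (5.92) ran from 0.91 to 249. Of the 12 highest genes, 11 had under 10 reads in at least 1 of the 4 columns, and 4 had 0 reads in the Miwi -/- IP. Gene length, which the steps between RPKM values give up to a common factor, was short throughout: 0.0489 to 0.471 times the median length of the kept genes.

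A ranking restricted to genes with at least 10 reads in each of the 4 columns was added after these values were seen. It held 2139 genes higher and 60 lower by both measures, at or above the median level. Its 12 highest ran from 4.27 to 5.23, and in all 12 the Miwi +/- IP also stood above the Miwi -/- IP, as it did for 9148 (74.7%) of all genes. A low Miwi -/- IP helped to choose these genes, so this is a description only. ENSMUSG00000001666 led, with 396 RPKM in the Miwi ADH/- IP and 477 in its input, against 9.97 and 493 in Miwi -/-. Its IP columns were 39.7-fold apart (27.2 to 60.4) while its inputs were nearly equal, and its enrichment difference was 5.23 (4.81 to 5.97).

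ENSMUSG00000074067 followed at 5.0, with an interval of 4.86 to 6.02 that is computed from reads without the pseudocount. This gene stood above its own input wherever MIWI was present. It had 155 RPKM in the Miwi ADH/- IP against 24.3 in the input, and 131 against 23.7 in Miwi +/-. In Miwi -/- the order was turned, with an IP at 2.76 RPKM and an input at 18.5. Its IP columns were 56.1-fold apart (39.5 to 82.7), from 4414 and 31 reads.

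**Figure D4:**
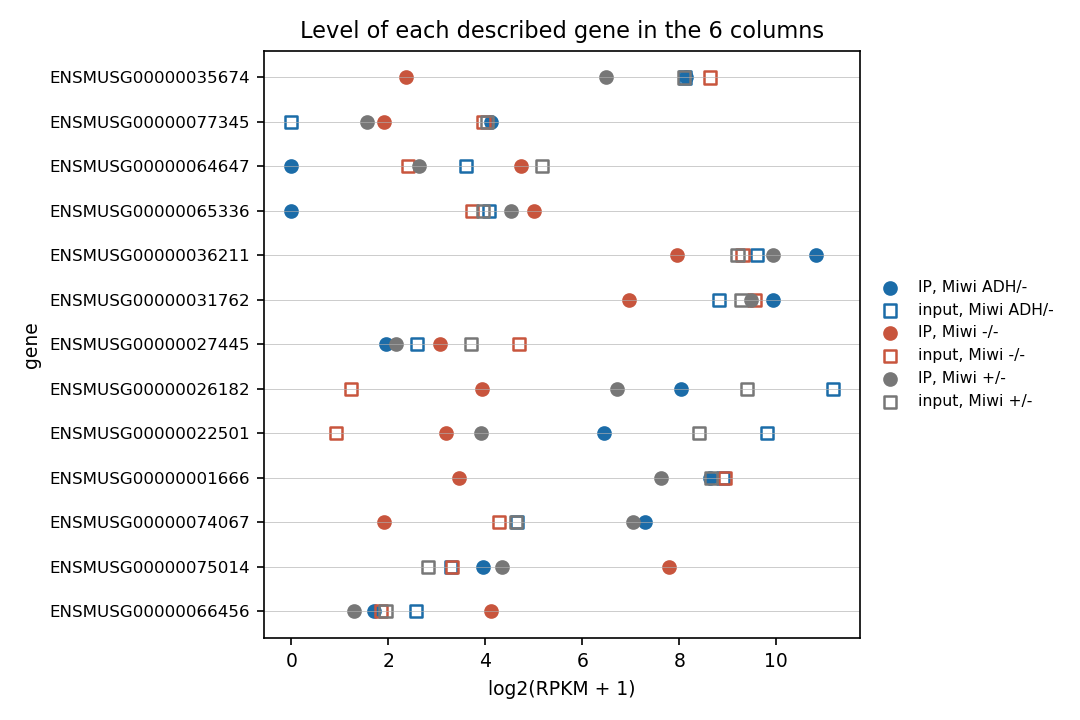
Level in log2(RPKM + 1) (x axis) of each gene described by ID (y axis), with filled circles for IP columns and open squares for inputs, in blue for Miwi ADH/-, red for Miwi -/- and grey for Miwi +/-. For ENSMUSG00000074067 the blue and grey circles lie right of all squares and the red circle left of them, while for ENSMUSG00000075014 the red circle lies farthest to the right.

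Transcripts above both their own input and the control form the narrower group. In 309 genes the Miwi ADH/- IP was at least 2-fold above its input, and the enrichment and IP column differences were at least 2-fold higher too; these values chose the genes. Their median RPKM was 7.37 in the Miwi ADH/- IP and 2.13 in its input, 0 in the Miwi -/- IP and 2.2 in its input, and 3.26 and 2.71 in Miwi +/-. Of these genes, 199 were at least 4-fold and 68 at least 8-fold higher in the Miwi ADH/- than in the Miwi -/- IP column. Most were thinly read, and 87 had at least 10 reads in each of the 4 columns. Relative to the medians 267 genes met the same limits, with median-of-ratios scaling 417 did, 235 of them shared, and with equal totals 642 did, 255 of them shared.

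The most abundant members of that group rested on many reads in every column. ENSMUSG00000036211 had 1796 RPKM in the Miwi ADH/- IP against 774 in its input, and 248 in the Miwi -/- IP against 630.4. Its enrichment difference was 2.56 (2.45 to 2.68), and its IP columns were 7.24-fold apart (6.78 to 7.74). On other scales the enrichment difference lay below this interval, at 1.5 relative to the median and 1.04 with median-of-ratios scaling. ENSMUSG00000031762 had 977 RPKM against 452 in Miwi ADH/- and 124 against 748 in Miwi -/-. Its enrichment difference was 3.7 (3.51 to 3.91) and its IP ratio 7.9 (7.01 to 8.92). On the same other scales its enrichment difference was 2.64 and 2.18. In Miwi +/- the IP and input stood at 972 and 587 RPKM for the first gene and at 709 and 622 for the second. Both genes were therefore higher in the IP than in the input with either form of MIWI, and lower without it. Most genes were below their input in the Miwi -/- IP, however. There, IP minus input was -1.34 for the first gene and -2.59 for the second, against a median of -1.37 over all genes. Over the 8 most abundant members the Miwi ADH/- IP ran from 215 to 1796 RPKM and the Miwi -/- IP from 4.5 to 248. The gene at 4.5 RPKM had only 6.71 RPKM in the Miwi -/- input, against 50.3 in the Miwi ADH/- input. IP minus input in Miwi -/- ran from -3.02 to -0.28 over the 8 genes.

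The Miwi +/- columns entered the choice of these genes only through the filter on low values, which reads all 6 columns. Of the 309, 64 (20.7%) were also at least 2-fold above their input in the Miwi +/- IP, against 519 (4.24%) of all genes (40.6% of all genes were 2-fold below), and 160 (51.8%) were above it by any margin, against 21.4% of all genes. With the filter read on the 4 columns compared, 277 of the genes stayed, and 54 (19.5%) of them were at least 2-fold above their input in the Miwi +/- IP, against 411 (3.64%) of 11293 genes. In the wider group of 6357 the share was lower. There, 211 genes (3.32%) were 2-fold above their input in the Miwi +/- IP, below the share of all genes, and the median of IP minus input in Miwi +/- was -0.91 against -0.77 over all genes. The 309 genes were low in the Miwi +/- input, at a median of 2.71 RPKM against 7.37 over all genes. Over 5 equal groups by that input, the median of IP minus input in Miwi +/- fell from -0.11 to -1.29. The 309 were not set against genes of like level.

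Genes lower by enrichment were of several kinds. Of the 894, 353 were also lower in the IP column, 310 had IP columns within 2-fold and 231 were higher in the Miwi ADH/- IP. Relative to the medians these numbers were 1554, 795 and 306 of 2655. In the Miwi -/- IP, 264 of them (29.5%) were at least 2-fold above their own input, against 449 (3.67%) of all genes. These shares rest on columns that are part of the measure. The genes were short, at a median of 0.629 times the median length, and low in the Miwi -/- input, at a median of 0.828 RPKM against 4.61 in the Miwi ADH/- input.

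The 353 genes lower by both measures had median levels of 0.467 RPKM in the Miwi ADH/- IP and 4.87 in the Miwi -/- IP, with inputs of 1.74 and 1.84 RPKM. The inputs were alike, while the Miwi ADH/- IP lay below its input and the Miwi -/- IP above its own, as the choice of the genes by these columns favours. The lowest 2 were tiny transcripts with few reads. ENSMUSG00000064647, at -5.94 and 0.0402 times the median length, had 0 reads in the Miwi ADH/- IP and 7 in the Miwi -/- IP, at least 5.92-fold lower when 3 reads are set for the 0. With the counting error of the 7 reads included, the exact limit of that fold was 3.66, and the interval of the enrichment difference reached up to -1.83. ENSMUSG00000065336, at -5.36, had 0 against 6 reads, at least 5.07-fold lower with 3 reads for the 0, with an exact limit of 2.99 and an enrichment interval reaching up to -0.94. Of the 12 lowest genes, 10 had under 10 reads in some column and 9 were under 0.25 times the median length.

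Of the 12 lowest genes with at least 10 reads in each column, 3 had a Miwi +/- IP above the Miwi -/- IP. A high Miwi -/- IP helped to choose these genes, so this too is a description only. ENSMUSG00000075014, the lowest of them, had 14.5 RPKM in the Miwi ADH/- IP and 220.4 in the Miwi -/- IP, from inputs of 8.83 and 8.96. Its enrichment difference was -3.82 (-4.68 to -3.12). The Miwi +/- IP, at 19.3 RPKM against 6.07 in the input, lay near that of Miwi ADH/-. ENSMUSG00000066456 went from 4.92 RPKM in the input to 2.28 in the IP of Miwi ADH/- and from 2.6 to 16.3 in Miwi -/-, for a difference of -3.12 (-5.19 to -2.33).

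The 231 genes that were higher in the IP column but lower by enrichment had a higher Miwi ADH/- input by construction. The enrichment difference is the IP column difference minus the input difference. Their median RPKM was 21.8 in the Miwi ADH/- input and 0.216 in the Miwi -/- input, 5.21 and 0.281 in the IPs of the same genotypes, and 8.41 and 2.85 in the Miwi +/- input and IP. The input difference was at least 2.02 for each of them, as their choice forces, and in 199 the Miwi -/- input held under 10 reads. In bulk RNA, fewer cells that hold a transcript and less of it per cell cannot be told apart. Among those at or above the median level, ENSMUSG00000026182 had the lowest enrichment difference, -5.83, with 263 RPKM in the Miwi ADH/- IP against 14.3 in the Miwi -/- IP. Its inputs stood at 2296 and 1.35 RPKM, the latter from 4 reads. ENSMUSG00000022501, at -5.64, had IP values of 86.2 and 8.18 RPKM from inputs of 900.1 and 0.901, the latter from 3 reads.

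Seen from the inputs, 361 genes had at least 8-fold more RNA in the Miwi ADH/- input than in the Miwi -/- input. Of these, 339 were higher in the Miwi ADH/- IP column, 216 were lower by enrichment and 10 were higher by it. The input difference that chose these genes is subtracted in the enrichment difference, which favours lower calls by enrichment and opposite calls. Over all genes, 1537 (12.6%) were at least 2-fold higher in the Miwi ADH/- input and 801 (6.54%) lower. The calls of the plain IP difference and the enrichment difference were opposite for 194 (53.7%) of the 361, and the enrichment difference lay within 2-fold for 135. Among the 6303 genes with inputs within 0.5 log2, 3502 (55.6%) were higher and 246 (3.9%) lower by enrichment, and 3288 (52.2%) higher and 267 (4.24%) lower by the IP columns.

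In the reverse case 62 genes had at least 4-fold less RNA in the Miwi ADH/- input. By enrichment 51 of them were higher, while 9 were higher and 15 lower in the IP column. Their choice by the input difference favours higher calls by enrichment, which subtracts it. The single gene at or above the median level with opposite calls in this direction was ENSMUSG00000027445. It had 2.89 RPKM in the Miwi ADH/- IP and 7.33 in the Miwi -/- IP, from inputs of 5.04 and 25.0. Its enrichment difference of 1.01 had an interval of -0.26 to 2.19, and turned to -0.048 when measured from the median.

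Lower calls and the spread of the enrichment difference went down with gene length. Genes were divided into 5 equal groups (quintiles) by length. From the shortest to the longest the medians were 1.06, 1.08, 1.17, 1.03 and 0.98, while the SD over genes fell from 1.86 to 0.96. With a pseudocount of 0.1 the medians were 1.7, 1.57, 1.67, 1.47 and 1.39. Lower calls went with short genes: 368 (15.0%) of the shortest quintile were lower, against 58 (2.37%) of the longest. The share of higher calls was 51.5% in the shortest, 55.2% in the middle and 49.2% in the longest quintile. Relative to the median of all genes it fell from 28.7% to 11.3%, and the share of lower calls from 30.2% to 16.2%. The median gene of the shortest quintile had 1 read in the Miwi -/- IP and that of the longest quintile 32 reads; the part of read number in the spread was not tested. The IP column difference fell with length, from a median of 1.48 to 0.82, and the input difference from 0.15 to -0.3.

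Level made a larger difference. Genes were split into quintiles by the Miwi +/- input, which is in neither measure. The median enrichment difference rose over the quintiles from 0.44 to 0.78, 1.13, 1.32 and 1.54. In the lowest quintile 771 genes (31.5%) were higher and 298 (12.2%) lower, against 1719 (70.2%) and 61 (2.49%) in the highest. Measured from the overall median, 7.51% and 36.5% were higher and lower in the lowest quintile, against 31.5% and 7.1% in the highest. Part of this comes with the pseudocount, which shrinks differences of low genes: with 0.1 in place of 1 RPKM the medians were 1.17, 1.53, 1.63, 1.56 and 1.61. The share of lower calls still fell, from 19.6% to 2.37%. The median IP column difference rose with level from 0.64 to 1.33 with a pseudocount of 1, but fell from 1.87 to 1.41 with 0.1. IP minus input itself went down with level in both genotypes, from -0.14 to -0.77 in Miwi ADH/- and from -0.59 to -2.38 in Miwi -/-. The pseudocount of 1 also limits how far IP minus input can fall in low genes, and this trend was not computed with 0.1.

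**Figure D5:**
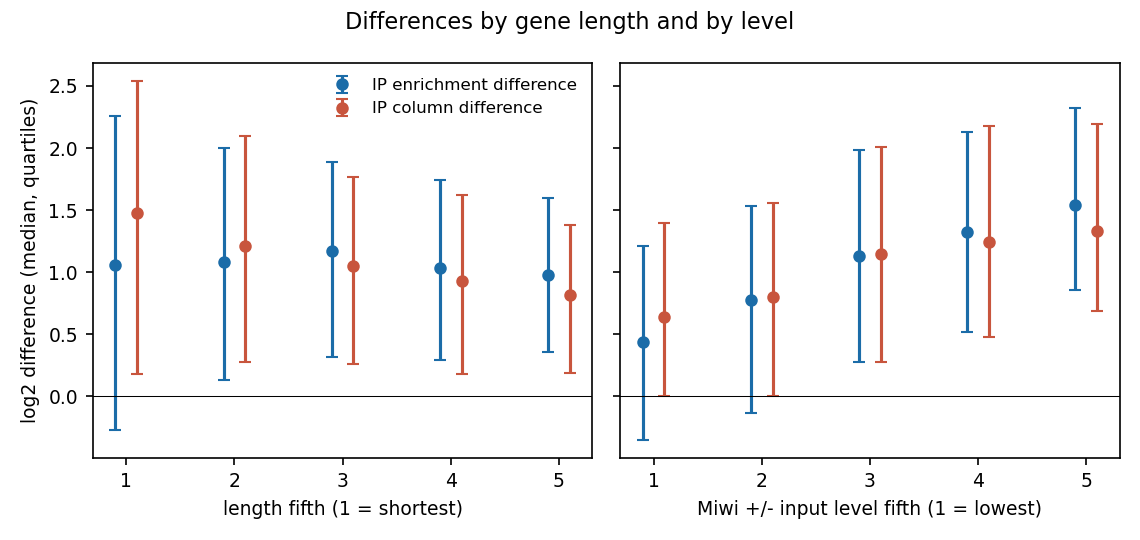
Median log2 difference between Miwi ADH/- and Miwi -/- (y axis; bars are the quartiles over genes) for quintiles of genes by length (left x axis) and by level in the Miwi +/- input (right x axis), for the IP enrichment difference and the IP column difference. Medians of the enrichment difference stay between 0.98 and 1.17 across length and rise from 0.44 to 1.54 across level.

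Many genes were not seen at all in the control IP. Of the genes used, 2897 (23.7%) had 0 reads in the Miwi -/- IP and 629 had 0 reads in the Miwi ADH/- IP, 426 of them in both. When 3 reads are set for each 0, 1586 of the former were at least 2-fold higher in the Miwi ADH/- IP and the highest bound was at least 84.8-fold. Of the latter, 147 were at least 2-fold lower and the highest bound was at least 45.6-fold. Genes with at least 10 reads in each of the 4 columns numbered 6025. Among these 3101 (51.5%) were higher and 212 (3.52%) lower by enrichment, around a median of 1.04, and 2525 (41.9%) higher and 235 (3.9%) lower by the IP columns, around 0.8.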

How the data were processed

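RNA of MIWI immunoprecipitates and inputs was sequenced. Per the submitters' processing notes, reads were handled with TopHat and Bowtie and the mouse build was mm9, while a counting tool and annotation are not named. The authors deposited RPKM, 1 column per group. The header writes the unit for the Miwi +/- columns only, and it was assumed for the others. Whether a column pools both samples is not stated.

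Models across replicates could not be run, so differences of log2(RPKM + 1) (pseudocount 1) of at least 2-fold were counted. Members, lists and rules were chosen with earlier results of these data known. Reads were recovered because RPKM values of a gene are whole multiples of the value of 1 read (tolerance 0.001 reads plus 1e-07 of the read number). Reads are uncertain for genes with few nonzero columns, and 2893 genes with a value in 1 column were taken as 1 read there. Intervals (95%) were Clopper-Pearson for ratios, exact conditional odds ratios for the enrichment of genes given by ID, and a normal approximation with 0.5 reads added for counts over all genes. The scripts were tested on simulated data. Gene lists chosen by symbol gave no values.

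Genes given by ID were at or above the median level: the 12 highest and lowest by enrichment with a like IP difference, the 8 most abundant above input and control, and up to 4 per direction with opposite calls, of which at most 2 per direction are printed. Python 3.11.15, numpy 2.4.6, pandas 2.3.3 and scipy 1.17.1 were used. Other pseudocounts, filters, scalings and a 4-fold limit were tried.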

Additional observations from a re-analysis of the deposited data

Results flagged for a closer look

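The Miwi ADH/- and Miwi -/- IPs moved in opposite directions from their own inputs, by at least 2-fold each, for the genes that follow; with 1 column per group the difference was not tested. Of 12246 genes, 158 were above input in Miwi ADH/- and below it in Miwi -/-, and 52 the other way round. Over all genes, 4.83% were at least 2-fold above input in Miwi ADH/- and 60.9% at least 2-fold below it in Miwi -/-. For the reverse, 25.0% were below input in Miwi ADH/- and 3.67% above it in Miwi -/-. The 158 genes were among 591 above input in Miwi ADH/-, a smaller share below input in Miwi -/- than the 60.9% of all genes. The 52 were among 449 above input in Miwi -/-, a smaller share below input in Miwi ADH/- than the 25.0% of all genes. Opposite moves were thus not frequent, and no test of these counts was made. The genes given by ID were chosen by measures that hold these same columns. Of the genes given by ID, ENSMUSG00000077345 (enrichment difference 6.16), ENSMUSG00000074067 (5.0), ENSMUSG00000031762 (3.7) and ENSMUSG00000036211 (2.56) were above input in Miwi ADH/- and below it in Miwi -/-. ENSMUSG00000064647 (-5.94), ENSMUSG00000026182 (-5.83), ENSMUSG00000022501 (-5.64) and ENSMUSG00000065336 (-5.36) were below input in Miwi ADH/- and above it in Miwi -/-. In Miwi -/- the counting interval of IP over input included equality for ENSMUSG00000065336, at 2.55 (0.605 to 12.3), from 6 and 4 reads. It did so too for ENSMUSG00000077345, at 0.189 (0.00432 to 1.36), from 1 and 9 reads.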

How the results depend on the processing

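No paired analysis was possible because the table has 1 column per group and the columns carry no replicate number; leaving out a replicate could not be run either. Counts are given as higher and lower by enrichment, higher and lower by IP column, and higher and lower by both. With a pseudocount of 0.1, 914 genes were lower by IP column and 588 by both, and the median enrichment difference was 1.54. With a pseudocount of 5 the counts were 3356, 347, 2963, 139, 2157 and 83, and the median 0.52. Without a filter 1522 were lower by enrichment, 917 by IP column and 628 by both (median 0.45), and with at least 5 RPKM in 2 columns 379, 207 and 118 (median 1.33). Filtering on the 4 columns compared gave a median of 1.11. Relative to the median the counts were 2463, 2655, 2553, 2565, 1637 and 1554, and with median-of-ratios scaling 3276, 2448, 3984, 2219, 2653 and 1688 (median 0.12). With equal totals 1648, 1734 and 1122 genes were lower (median 0.49). At 4-fold the counts were 2636, 262, 2670, 150, 1732 and 69. Alternatives chosen after seeing the data were at least 10 reads in each column, with 3101, 212, 2525, 235, 2263 and 118 genes, and 3 reads in place of 0, with a median of 0.9. Of the 13 genes given by ID, only ENSMUSG00000027445 changed direction under the pseudocounts, scalings and the 3-read setting: to -0.048 relative to the median, -0.46 with median-of-ratios scaling and -0.0043 with equal totals. Of the 78 values of the 13 genes under those settings, 51 stayed within the counting interval of the main value. Another 24 moved outside it with the same sign. The cause of these shifts was not tested, except that a higher pseudocount shrinks differences and stricter filters leave fewer genes by construction. The Miwi -/- IP held the fewest reads in listed genes (761525) and the most genes with 0 reads (2897). The part of depth in this was not tested.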
